A study of Mus musculus with 4 samples.

Results

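The Sox2 locus was described from the CTCF summits that lay on chromosome 3 between 100 kb before the start of Sox2 and 200 kb after its end, a stretch of 302 kb (chr3:34549995-34852461, mm10). A summit is the base of a peak at which the signal was highest. Of 334066 peaks in 4 peak lists, 87 had their summit in this stretch: 17 of 74555 for Del(CBS8-10), 28 of 99177 for Inv:Del(CBS7-10), 14 of 66365 for Inv and 28 of 93969 for Ins. Summits of different lists chained by steps of at most 100 bp counted as the same position, which gave 38 positions.

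The libraries came from CTCF CUT&RUN, in which an antibody guides a nuclease to the bound protein and the released DNA is sequenced, in mouse embryonic stem cells (mESC). There was 1 library per genotype. All 4 lines carried a HoxB deletion (Del) on one chromosome 11 and, on the other, Del(i9-13) with an inserted array of CTCF binding sites, Ins(CBS5-10). The Del(CBS8-10) line had lost CBS8-10 from that array. The Inv:Del(CBS7-10) line, Inv(CBS5-10):Del(CBS7-10) in full, had the array inverted and CBS7-10 removed, the Inv line, Inv(CBS5-10), had it inverted and complete, and the Ins line carried it complete and uninverted. Every line was edited, so no unedited line is described here. The edits named in the labels are at HoxB on chromosome 11, and Sox2 lies on another chromosome. The labels do not say whether a line is 1 clone, and CTCF peaks cannot check the label mESC against expressed markers.

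Sox2 encodes a transcription factor that works with Oct4 (Pou5f1) and Nanog to hold embryonic stem cells in the pluripotent state. Its transcription in these cells depends on a distal cluster of enhancers, the Sox2 control region, more than 100 kb downstream. CTCF is a zinc-finger protein that stops loop extrusion by cohesin, and it is known to bind beside both Sox2 and that region in mouse embryonic stem cells. Sox2 itself (chr3:34649995-34652461) lies inside Sox2ot, a long noncoding RNA gene (chr3:34560381-34677993). The other annotated genes of the stretch are the microRNA gene Mir1897 and the noncoding Gm42205, Gm34941, Gm3143, Gm38509 (also named Peril) and Gm21388. Sox2 is the only protein-coding gene among these 8 genes.

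The promoter of Sox2 is shown because no list had a summit or a peak interval in it. It is given as the 250 bases before the RefSeq start (GRCm38.p6, chr3:34649745-34649994, + strand). Capitals mark the matches to AGNNGGC, a short core of the CTCF motif, read on either strand.
Sox2 promoter: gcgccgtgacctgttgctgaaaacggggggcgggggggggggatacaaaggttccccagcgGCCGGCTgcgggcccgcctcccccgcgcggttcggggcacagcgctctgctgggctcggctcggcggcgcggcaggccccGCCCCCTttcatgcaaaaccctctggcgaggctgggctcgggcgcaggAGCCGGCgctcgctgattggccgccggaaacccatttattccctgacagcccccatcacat
These bases held 3 matches to AGNNGGC, none overlapping another, and 52.5% of 32851 promoters of this length held at least 1. A longer core, CCA followed by 2 bases of any kind and then AGNNGGC, had no match on either strand and was present in 2.07% of promoters. G and C made up 72.0% of the bases, against a median of 52.4% over all promoters of the table. The nearest summit of any list lay 1447 bp before this sequence.

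The start of Gm38509 is shown because a CTCF position found in every library lay just inside the gene. Its 300 bases run from 250 before to 50 after the start (chr3:34771825-34772124, + strand), and capitals mark the 58 bases under the Ins peak interval.
Gm38509 start: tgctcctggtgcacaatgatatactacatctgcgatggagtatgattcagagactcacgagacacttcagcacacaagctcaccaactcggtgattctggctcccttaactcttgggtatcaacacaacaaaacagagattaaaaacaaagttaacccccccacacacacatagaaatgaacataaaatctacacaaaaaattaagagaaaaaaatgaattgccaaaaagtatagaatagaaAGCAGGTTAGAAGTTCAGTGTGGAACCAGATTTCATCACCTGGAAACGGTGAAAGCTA
The peak intervals of 3 of the 4 lists reached into it, and the summits lay 112 bp or more beyond its end. Neither motif matched in it, whereas 59.8% of promoters of this length held AGNNGGC and 2.43% held the longer core. The sequence under the other summits was not analysed here, since no genome sequence was used.

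CTCF was found at 10 of the 38 positions in all 4 libraries, at 6 in 3, at 7 in 2 and at 15 in 1. The 10 positions lay 73.6, 10.6, 9.1 and 2.1 kb before the start of Sox2 and 4.1, 110.1, 122.3, 128.0, 137.4 and 164.6 kb after it. No list had a summit within Sox2. The widest stretch without a summit was 38.1 kb in the Del(CBS8-10), Inv:Del(CBS7-10) and Ins libraries, between the positions 48.7 and 10.6 kb before Sox2, and 70.1 kb for Inv, from 34689984 to 34760103. With the Inv library left out, which was added once the values were known, 14 positions had a summit in each of the other 3 lists.

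Libraries differed in depth, which the lists show only indirectly. The genome background, the commonest local background of a list in fragments per position, was 0.553 for Del(CBS8-10), 1.33 for Inv:Del(CBS7-10), 0.190 for Inv and 0.858 for Ins. The median pileup, the number of fragments over the summit, was 17, 35, 14 and 26 in the same order. The −log10 q of a peak grows with depth, so it was read within a list, as the percentile of the peak among all peaks of that list. Having 1 library of each genotype, the design allows no test of genotype, and the 95% intervals given cover counting error only.

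**Figure D1:**
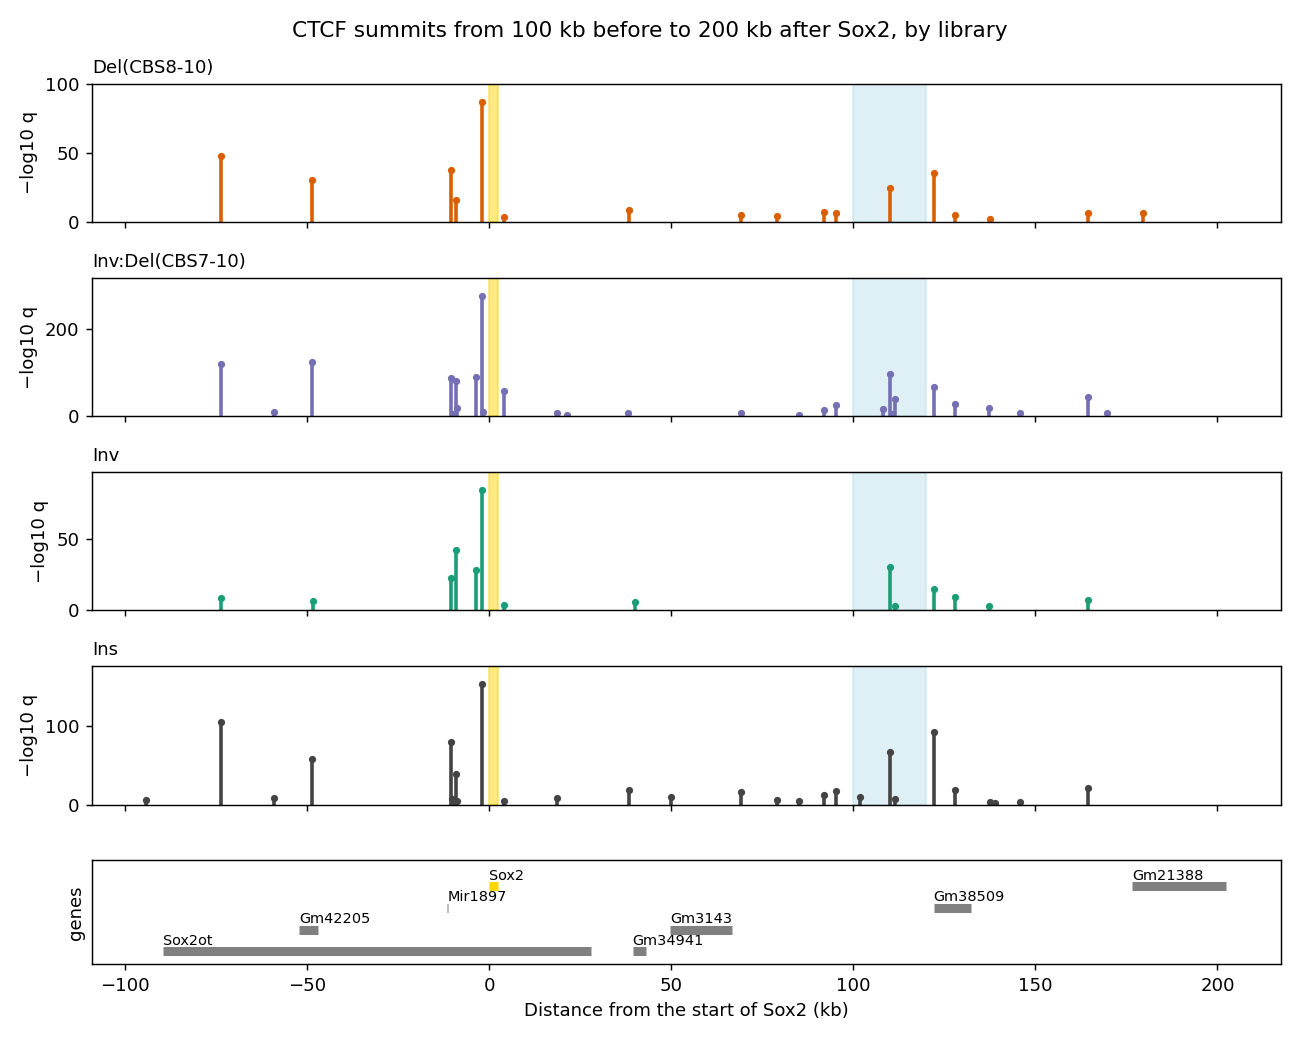
Every CTCF summit of the Sox2 stretch, 1 row per library, with distance from the start of Sox2 (kb) on the horizontal axis and −log10 q on a vertical axis scaled to each library; the yellow band is Sox2, the blue band the stretch 100 to 120 kb downstream, and the bottom row the annotated genes. The tallest summit stands 2.1 kb before Sox2 in every library, and further summits stand 110.1 and 122.3 kb after its start.

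The strongest CTCF site of the locus by −log10 q and by pileup lay 2.1 kb before Sox2, inside Sox2ot. Its summits were at 34647905 for both Del(CBS8-10) and Inv:Del(CBS7-10), 34647915 for Inv and 34647908 for Ins. Its −log10 q was 87.3 for Del(CBS8-10), 275 for Inv:Del(CBS7-10), 84.0 for Inv and 152 for Ins. Pileups were 88 (95% interval 70.6 to 108), 317 (283 to 354), 89 (71.5 to 110) and 159 (135 to 186) fragments in the same order. The fold over local background, the authors' value, was 20.8, 18.2, 19.1 and 21.1. In each list the site ranked between the 97.3rd and 98.9th percentile, and it was the highest of the window. It was the only position of the locus among the 20000 strongest peaks of all 4 lists.

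A second site next to Sox2 was found in both lines with an inverted array and in neither of the others. It lay 3.6 kb before the start, with summits at 34646429 for Inv:Del(CBS7-10) and 34646441 for Inv. There its −log10 q was 88.7 and 28.3, its pileup 155 (132 to 181) and 44 (32.0 to 59.1), and its percentile 75.1 and 76.3. Neither the Del(CBS8-10) list nor the Ins list had a peak interval over it.

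The share of Inv summits with this pattern differed with their strength. Outside chromosome 11 it was 3953 of 58205 (6.79%) whatever the −log10 q, and 2 of these summits lay in the Sox2 stretch. Of 20079 Inv summits outside chromosome 11 with a −log10 q of at least 20, 70 (0.349%) were also in the Inv:Del(CBS7-10) list and in neither the Del(CBS8-10) list nor the Ins list. Of 6959 Inv summits with a −log10 q within 20% of that of the site, 200 (2.87%, 2.51 to 3.29) lacked a counterpart among Del(CBS8-10) summits and 83 (1.19%, 0.963 to 1.48) lacked one among Ins summits. With the local background also within 1.5 times, an added setting, the shares were 24 of 677 (3.55%) and 10 of 677 (1.48%). Elsewhere before Sox2 the Ins list held a separate weak peak at 34639719, 10.3 kb before the gene, with a pileup of 30 over a background of 8.28. The position was singled out after its values were seen, so these shares describe it and test nothing.

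Further upstream within Sox2ot a pair of sites lay 10.6 and 9.1 kb before Sox2, 1.5 kb apart, and both were found in every library. The first had a −log10 q of 37.7 for Del(CBS8-10), 87.0 for Inv:Del(CBS7-10), 22.9 for Inv and 79.8 for Ins. The second had 16.2, 81.1, 42.1 and 38.8 in the same order. The first was therefore the higher of the pair in the Del(CBS8-10), Inv:Del(CBS7-10) and Ins libraries and the lower in the Inv library. Their pileups, which come from the same peak calls, had the same order. They were 53 and 32 for Del(CBS8-10), 132 and 126 for Inv:Del(CBS7-10), 33 and 49 for Inv and 111 and 71 for Ins. The 95% intervals of the pair overlapped in the Inv library, at 22.7 to 46.3 and 36.3 to 64.8. They also overlapped for Del(CBS8-10) and Inv:Del(CBS7-10), and only for Ins did they not. The reversed order in the Inv library is therefore not clear of counting error. Mir1897 lies just upstream of the pair and had no summit in any list.

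Around this pair the lists with more fragments showed side summits. In the Ins list 34640658 and 34641151 shared an interval of 687 bp with the main summit at 34640877, with −log10 q of 4.15 and 4.11, and a separate weak peak lay at 34639719 (6.72). In the Inv:Del(CBS7-10) list 34641136 (19.5) shared an interval of 545 bp with 34640884, and a weak peak lay at 34640054 (6.18). A shoulder 1.7 kb before Sox2, at 34648298, was the summit nearest to the start of the gene. It was found in the Inv:Del(CBS7-10) list alone (8.87), within the interval of the strongest site.

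Downstream of Sox2 the first site, 4.1 kb after its start and 1.6 kb after its end, was weak in 3 libraries and strong in 1. Its −log10 q was 3.62 for Del(CBS8-10), 56.7 for Inv:Del(CBS7-10), 4.05 for Inv and 4.47 for Ins. The percentiles were 13.2, 66.7, 9.31 and 12.8, and the pileups 8 (3.45 to 15.8), 67 (51.9 to 85.1), 6 (2.2 to 13.1) and 13 (6.92 to 22.2). Divided by the genome background of the same library, these pileups were 14.5, 50.5, 31.6 and 15.2. Read that way the Inv:Del(CBS7-10) library was still the highest. The second place of the Inv library rests on a pileup of 6 and on this divisor. With pileups scaled over all shared peaks, the log2 ratio to Ins was 0.30 (-1.38 to 1.80) for Inv and 0.33 (-1.15 to 1.71) for Del(CBS8-10).

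The far upstream part of Sox2ot held 2 strong sites that were low in the Inv library. The site 73.6 kb before Sox2 had a −log10 q of 48.1 for Del(CBS8-10), 120.4 for Inv:Del(CBS7-10), 8.61 for Inv and 104 for Ins. It stood at the 91.5th, 81.3rd, 36.3rd and 92.8th percentile of these lists. The site 48.7 kb before Sox2, also inside Gm42205, had 30.4 for Del(CBS8-10), 124 for Inv:Del(CBS7-10) and 57.6 for Ins. In the Inv library the nearest summit was 34601512, with 6.50 at the 27.6th percentile, which did not count as shared at 100 bp but did at 250 bp. A weaker site 59.0 kb before Sox2 was found in the Inv:Del(CBS7-10) and Ins lists only (10.8 and 8.55), and a weak peak at 34555767, before the start of Sox2ot, in the Ins list only (6.48).

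The distal stretch, taken as 100 to 120 kb after the start of Sox2, held 1 site in every library. It lay 110.1 kb downstream, with summits at 34760086 for Del(CBS8-10), 34760095 for Inv:Del(CBS7-10), 34760103 for Inv and 34760080 for Ins. Its −log10 q was 25.03, 96.1, 30.3 and 66.0 in the same order, and its pileup 40 (28.6 to 54.5), 148 (125 to 174), 39 (27.7 to 53.3) and 95 (76.9 to 116). Its percentile lay between 71.9 and 81.1 and was below the site next to Sox2 in each.

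A companion 1.3 kb further on was found in 3 lists. It had a −log10 q of 38.7 for Inv:Del(CBS7-10), 2.94 for Inv and 7.23 for Ins, and no summit in the Del(CBS8-10) list. Weak summits of the stretch in only 1 list were 34758053 (15.6) and 34760492 (5.12) for Inv:Del(CBS7-10) and 34751803 (9.64) for Ins.

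Beyond the distal stretch CTCF lay at the start of Gm38509, whose sequence is given above. This site, 122.3 kb after the start of Sox2, had a −log10 q of 35.4 for Del(CBS8-10), 66.5 for Inv:Del(CBS7-10), 14.9 for Inv and 92.1 for Ins. Its percentiles were 83.0, 69.7, 55.9 and 90.1. A weaker site within Gm38509, at 128.0 kb, had 5.21, 27.2, 9.15 and 18.1 in the same order. The last positions found in every list, outside any annotated gene, lay at 137.4 kb with 2.29, 18.6, 3.05 and 3.87 and at 164.6 kb with 6.36, 43.9, 7.22 and 20.8. The summits at 137.4 kb were spread over 161 bp, so they were joined only through intermediate ones.

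Between Sox2ot and the distal stretch CTCF peaks were weak, and the Inv list had a lone summit there, at 34689984 within Gm34941 (6.25). Sites 38.3, 69.2, 91.8 and 95.4 kb after the start of Sox2 were found in the other 3 lists. Their highest −log10 q was 25.7, at 95.4 kb for Inv:Del(CBS7-10). Sites at 78.9 and 85.2 kb and, within Sox2ot, at 18.6 kb were found in 2 lists each. A summit within Gm3143 at 34699953 was found in the Ins list alone (9.64), and 1 within Gm21388 at 34829591 for Del(CBS8-10) alone (6.92). Of the 15 positions found in 1 list, 1 was in the Del(CBS8-10) list, 6 for Inv:Del(CBS7-10), 2 for Inv and 6 for Ins, and their −log10 q lay between 2.74 and 15.6.

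**Figure D2:**
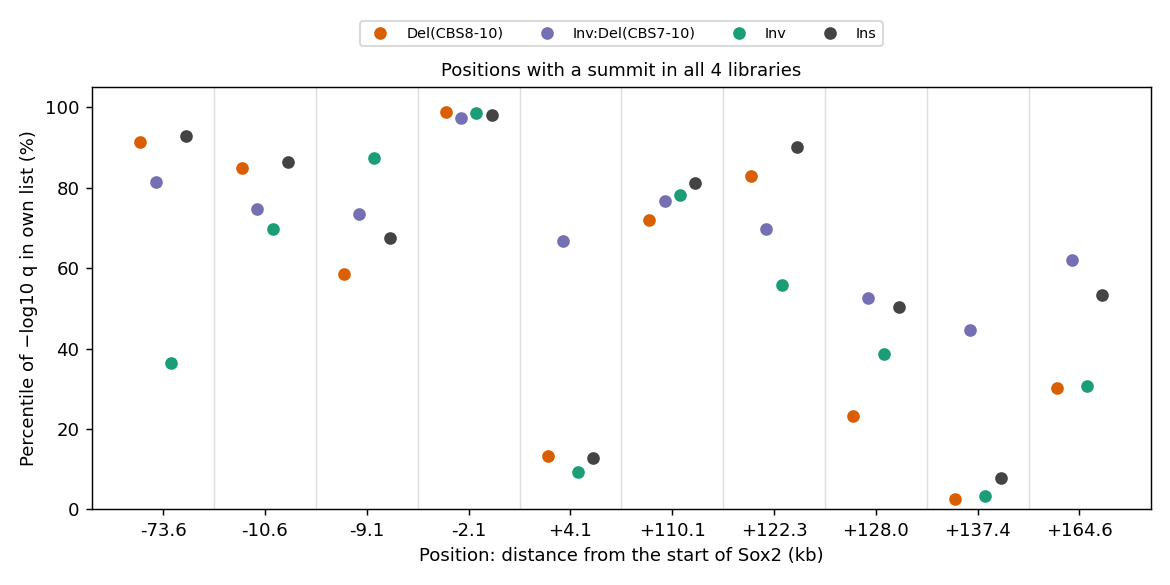
Percentile of −log10 q among all peaks of the same list (vertical axis, %) at the 10 positions found in every library, ordered by distance from the start of Sox2 (kb). The position at -2.1 kb lies at 97.3 to 98.9% in each library, the Inv library is low at -73.6 kb (36.3%), and the Inv:Del(CBS7-10) library is high at +4.1 kb (66.7%).

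The local background under the peaks was highest next to Sox2 and around the site 110.1 kb downstream. In the 12 kb before Sox2 it was 5.93 to 7.16 times the genome background in the Del(CBS8-10) library, 8.64 to 12.8 times for Inv:Del(CBS7-10), 13.3 to 20.2 times for Inv and 7.69 to 9.65 times for Ins. At the site 110.1 kb downstream it was 6.62, 10.0, 12.8 and 8.79 times in the same order. At the window's summits outside both stretches the median was 1.56, 1.69, 2.11 and 1.40 times, and over all peaks of each list it was 2.17, 1.93, 3.37 and 2.26 times. The backgrounds before Sox2 exceeded those of 90.5 to 97.1% of all peaks of their lists. Such backgrounds were not particular to Sox2. In the window of the same shape around Pou5f1 the highest ratio was larger in every library, at 13.4, 20.1, 23.2 and 17.2 times in the same order. Around Nanog it was 7.59, 10.3, 15.6 and 10.0 times, and around Esrrb 6.76, 7.52, 11.4 and 7.16 times. The local background is the peak caller's own estimate, and a peak over a high background needs a larger pileup to reach a given q. Whether it came from the peaks themselves or from other fragments was not tested.

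**Figure D3:**
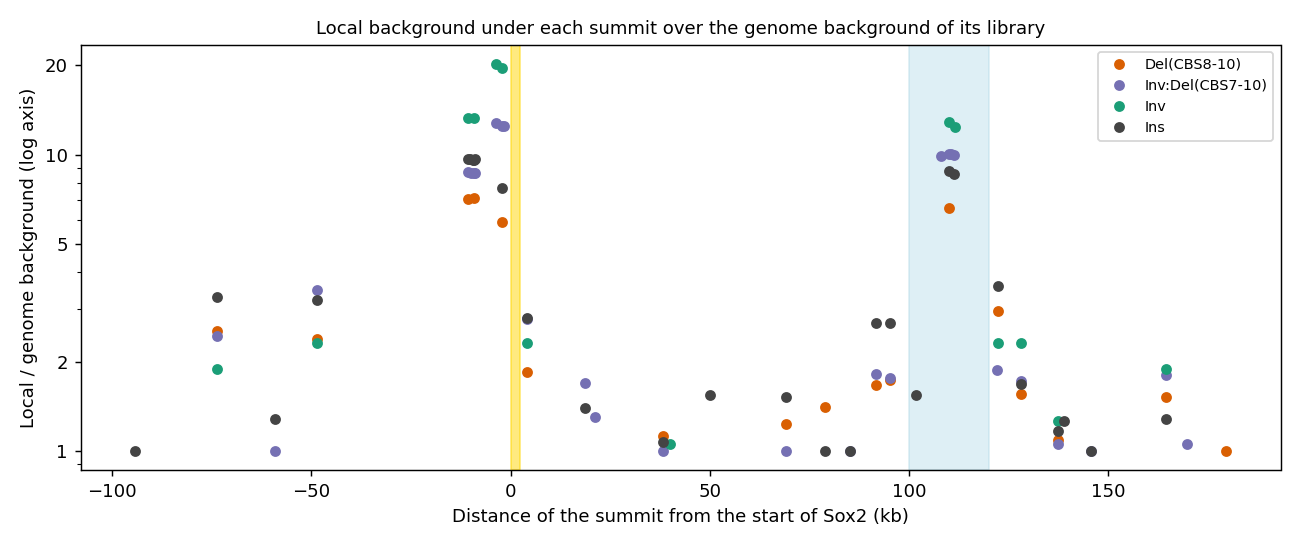
Local background under each summit divided by the genome background of the same library (log axis) against distance from the start of Sox2 (kb), 1 colour per library. Values reach 20.2 for Inv just before Sox2 (yellow) and 12.8 in the distal stretch (blue), and are at most 3.59 outside the 12 kb before Sox2 and that stretch.

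The first comparison set the Del(CBS8-10) line against the Ins line. Of the 17 Del(CBS8-10) summits, 16 (94.1%, 95% Wilson interval 73.0 to 99.0) had an Ins summit within 100 bp, against 81.4% of all Del(CBS8-10) summits outside chromosome 11. In the other direction 16 of 28 Ins summits (57.1%, 39.1 to 73.5) were found in the Del(CBS8-10) list, against 64.9% of all. At a −log10 q of at least 10, 7 of 7 Del(CBS8-10) summits were found in the Ins list so filtered, and 7 of 13 Ins summits in the Del(CBS8-10) list. The share over all summits at this threshold is not given here, so these counts have nothing to be set against.

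Levels at the shared positions were compared as log2 ratios of pileups, scaled so that the median over 52613 shared peaks on autosomes other than chromosome 11 was 0. None of the 16 shared positions differed by 2-fold or more, where 4.91% of all shared peaks were at least 2-fold higher and 2.19% at least 2-fold lower in the Del(CBS8-10) library. The median of the 16 was -0.04. The site 2.1 kb before Sox2 had a log2 ratio of 0.18 (95% interval -0.22 to 0.56) and the site at 110.1 kb one of -0.22 (-0.79 to 0.33). The interval of the first leaves a change of 2-fold outside it in either direction, and so does that of the second.

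The second comparison set the Inv line against the Ins line. Of the 14 Inv summits 10 (71.4%, 45.4 to 88.3) were found in the Ins list, against 80.7% of all Inv summits outside chromosome 11, and 10 of 28 Ins summits (35.7%, 20.7 to 54.2) were found in the Inv list, against 56.0% of all. The first of these background shares lies inside the interval of the window and the second above it. The Ins summits of the window were weaker than the Ins list as a whole, with a median −log10 q of 9.64 against 17.8, so the second share compares peaks of unlike strength. Of Ins peaks with a −log10 q like that of an absent summit, 49.8 to 88.1% also lacked an Inv summit. The exception was 34601328, with 5.95%. The genome background of the Inv library was the lowest of the series, and the parts of depth and peak strength in the second share were not tested.

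Of the 10 shared positions 2 were at least 2-fold lower in the Inv library and none was at least 2-fold higher, where 9.31% of 45479 shared peaks were at least 2-fold lower and 8.33% at least 2-fold higher. At 73.6 kb before Sox2 the pileup was 9 for Inv and 95 for Ins, which after scaling was a log2 ratio of -1.98 (-3.16 to -1.0), or 3.96-fold lower. Only 0.798% of 6895 shared peaks of like mean pileup had a lower ratio. At the start of Gm38509 pileups were 14 for Inv and 89 for Ins (log2 ratio -1.25, -2.18 to -0.43), below which lay 5.44% of like peaks. With ratios of the deposited folds this second value was -0.82, under the 2-fold line.

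Next to Sox2 the ratios were mixed. At 10.6 kb before it the log2 ratio was -0.33 (-0.94 to 0.24). At 9.1 kb before it the pileup was 49 for Inv and 71 for Ins, a log2 ratio of 0.88 (0.32 to 1.43) at the 95.7th percentile of like peaks. At 2.1 kb before it the log2 ratio was 0.58 (0.19 to 0.96), at the 79.0th percentile. With the deposited folds, which allow for the local background, these became 1.12 and 0.12, so that the first passed 2-fold and the second moved close to 0. The site at 110.1 kb had a log2 ratio of 0.13 (-0.45 to 0.68), and the median of the 10 was 0.17.

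The third comparison set the Inv:Del(CBS7-10) line against the Inv line. Of the 28 Inv:Del(CBS7-10) summits 12 (42.9%, 26.5 to 60.9) were found in the Inv list, against 56.3% of all, and 12 of 14 Inv summits (85.7%, 60.1 to 96.0) were found in the Inv:Del(CBS7-10) list, against 85.8% of all. The Inv summits not found were 34601512, which had a counterpart within 250 bp, and 34689984.

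Of the 12 shared positions 2 were at least 2-fold higher in the Inv:Del(CBS7-10) library and none was at least 2-fold lower, where 6.96% of 48336 shared peaks were at least 2-fold higher and 9.92% at least 2-fold lower. At 73.6 kb before Sox2 the pileup was 109 for Inv:Del(CBS7-10) and 9 for Inv, a log2 ratio of 1.41 (0.43 to 2.58), at the 95.2nd percentile of like peaks. This rests on the same Inv value as the second comparison. At 4.1 kb after the start of Sox2 the pileup was 67 for Inv:Del(CBS7-10) and 6 for Inv, a log2 ratio of 1.29 (0.09 to 2.79), at the 94.4th percentile. The site 9.1 kb before Sox2 had a log2 ratio of -0.83 (-1.31 to -0.32), at the 2.48th percentile, and again shares the Inv value. The strongest site, 2.1 kb before Sox2, had a log2 ratio of -0.36 (-0.70 to -0.00054), at the 21.6th percentile of like peaks. Its interval just leaves out 0, and with the deposited folds the ratio was -0.55. The site 3.6 kb before Sox2, with -0.37 (-0.86 to 0.15), and that at 110.1 kb, with -0.26 (-0.78 to 0.28), did not differ beyond their counting error. The median of the 12 was -0.07.

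**Figure D4:**
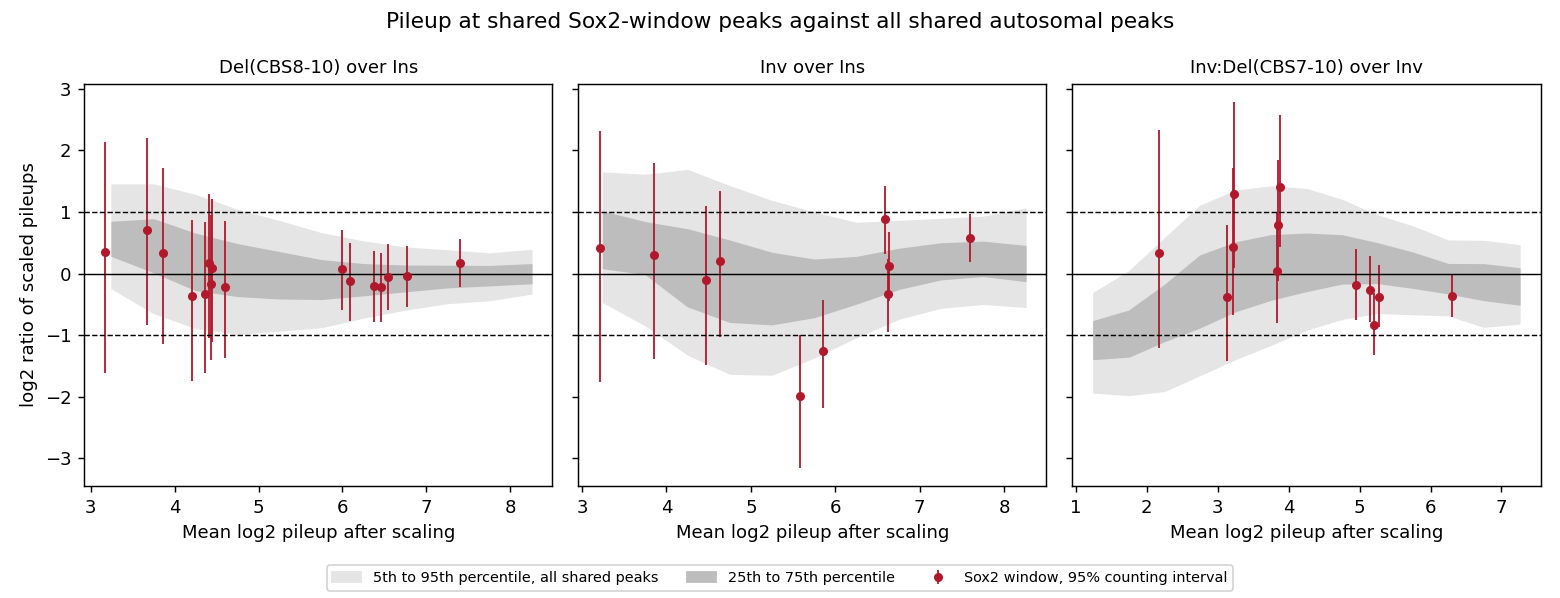
Log2 ratio of scaled pileups (vertical axis) against the mean log2 pileup (horizontal axis) at the positions of the Sox2 stretch shared by each pair of libraries (red, with 95% counting intervals); grey bands hold the middle of all shared autosomal peaks and dashed lines mark 2-fold. All 16 positions lie between the dashed lines for Del(CBS8-10) over Ins, whereas the position 73.6 kb before Sox2 is at -1.98 for Inv over Ins and at 1.41 for Inv:Del(CBS7-10) over Inv.

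The number of summits around Sox2 was ordinary for a gene. Among windows of the same shape around 16003 protein-coding genes outside chromosomes 11 and Y, that of Sox2 stood at percentile 56.3 for Del(CBS8-10), 70.3 for Inv:Del(CBS7-10), 52.4 for Inv and 70.9 for Ins. These windows include the gene, so longer genes have longer windows. By summits per 100 kb the percentiles were higher, at 63.9, 76.7, 59.7 and 76.6 in the same order. The windows of the pluripotency genes Nanog and Pou5f1 held more, with 32 and 42 summits in the Del(CBS8-10) library, 49 and 55 for Inv:Del(CBS7-10), 34 and 33 for Inv and 42 and 50 for Ins. That of Esrrb, a longer window, held 23, 41, 25 and 34. The share of summits around Sox2 found within 100 bp in each of the other lists was 52.9% for Del(CBS8-10), 32.1% for Inv:Del(CBS7-10), 71.4% for Inv and 32.1% for Ins. Over all summits outside chromosome 11 it was 59.5, 45.1, 68.3 and 47.6% in the same order, so the share at Sox2 was the lower in 3 lists and the higher in the Inv list. It was 78.1, 53.1, 73.5 and 61.9% around Nanog, 60.9, 34.1, 56.0 and 41.2% around Esrrb and 59.5, 45.5, 75.8 and 50.0% around Pou5f1. These shares are given as a description, with no test of their difference.

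The start of Sox2 was about as close to a CTCF summit as that of many genes. The distance was 2.09 kb for Del(CBS8-10), 1.70 kb for Inv:Del(CBS7-10), 2.08 kb for Inv and 2.09 kb for Ins, and 31.7, 39.4, 34.2 and 44.2% of the genes had a summit closer to their start. Of the SoxB family, to which Sox2 belongs and whose members act in the early nervous system, 4 of 5 genes could be placed. Sox1 had its nearest summit 3.66 to 3.70 kb away in all libraries. Sox14 had one 3.43 kb away in the Inv:Del(CBS7-10) library and 29.2 kb away in each of the others, and Sox21 had 0.189 kb for Ins and 6.56 to 16.0 kb in the others.

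Of the 16 listed pluripotency genes 10 could be placed, and 5, 8, 7 and 9 of them had a summit within 2.5 kb of their start in the Del(CBS8-10), Inv:Del(CBS7-10), Inv and Ins libraries, against 34.2, 44.7, 36.2 and 46.5% of all 16003 genes. Nanog, a partner of Sox2, had its nearest summit 1.53 kb away for Del(CBS8-10), 0.063 kb for Inv:Del(CBS7-10), 0.023 kb for Inv and 1.55 kb for Ins. Utf1, a chromatin factor of pluripotent cells, had a summit 0.09 to 0.12 kb from its start in every library.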

How the data were processed

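The labels' protocols give CUT&RUN for CTCF in 4 mESC lines, with antibody 61311 of Active Motif and pA-MNase. Per the submitters' processing notes, reads were handled with MACS2 2.2.7.1, Bowtie2 2.4.5, bedtools 2.30.0, cutadapt 4.1 and Picard on the build mm10. Their settings and filters, and whether peaks were called against a control, are not stated there. The deposited peak lists give for each peak a score, a fold over local background, a −log10 p and a −log10 q, all as the authors' peak caller wrote them, 1 list per library. The lowest −log10 q of a list was 1.30 to 1.31.

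From these were computed the whole-number pileup and local background that give both the deposited fold, taken as pileup plus 1 over background plus 1, and the Poisson −log10 p, within a tolerance of 0.001. This succeeded for at least 99.96% of peaks of each list and for all 87 at Sox2. Pileup ratios used mutually nearest summits within 100 bp and were called at 2-fold. Like peaks had a −log10 q, or for ratios a mean pileup, within 20%. Intervals are Wilson for shares and exact for pileups and ratios. Python 3.11.15, pandas 2.3.3 and SciPy 1.17.1 were used, and the calls were checked on simulated data. Sequences are RefSeq's for GRCm38.p6, the assembly that mm10 displays. Genes named are Sox2, those overlapping the stretch, the SoxB and pluripotency lists, and the windows of Nanog, Esrrb and Pou5f1; genes without a strand in the annotation were not placed. The stretch, the positions and the lists were chosen with earlier results of these data known.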

Additional observations from a re-analysis of the deposited data

How the results depend on the processing

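No paired analysis was possible because each genotype had 1 library. With peaks of a −log10 q of at least 10, the stretch held 7 summits for Del(CBS8-10), 18 for Inv:Del(CBS7-10), 6 for Inv and 13 for Ins, and 5 positions were shared by all 4. Summits found again were then 7 for Del(CBS8-10) in Ins and 7 for Ins in Del(CBS8-10), 5 and 5 between Inv and Ins, and 6 and 6 between Inv:Del(CBS7-10) and Inv. The shares over all summits at this threshold are not given here. The percentile of the stretch by number of summits became 40.1 for Del(CBS8-10), 39.4 for Inv and 51.3 for Ins. With the 20000 strongest peaks of each list the summits were 5, 3, 4 and 5, 1 position was shared by all, and the percentile was 39.0 for Inv:Del(CBS7-10) and 56.4 for Ins. With ratios of deposited folds, 1 position was at least 2-fold higher and 1 at least 2-fold lower for Inv over Ins. With summits matched within 250 bp, 3 positions were at least 2-fold lower for Inv over Ins and 3 at least 2-fold higher for Inv:Del(CBS7-10) over Inv. The cause of these moves was not tested. Shared positions numbered 11 when matched within 250 bp or by any overlap of intervals, and 9 with a reciprocal overlap of 50%. Scaling to chromosome 3 alone moved no call, and no position called at 2-fold changed sign. Among positions not called, all with counting intervals that include 0, ratios of deposited folds changed the sign for Del(CBS8-10) over Ins at 34639377 (-0.04 became 0.22), 34640846 (-0.12 became 0.12), 34688260 (0.17 became -0.20) and 34760086 (-0.22 became 0.0046). They also did so for Inv over Ins at 34778022 (0.21 became -0.10) and for Inv:Del(CBS7-10) over Inv at 34778019 (-0.38 became 0.042). The lists show depth only indirectly, and whether a position missing from the Inv list lay under its detection limit was not tested.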

Other observations

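The distance from gene starts to the nearest CTCF summit differed between libraries at some pluripotency genes, with no test. At others it hardly differed, as at Utf1 and at Tfcp2l1 (2.176 to 2.435 kb). The median over all 16003 genes was shorter in the lists with more peaks. It was 3.295 kb for Inv:Del(CBS7-10) and 3.033 kb for Ins, against 5.58 kb for Del(CBS8-10) and 5.685 kb for Inv. The part of peak number in the differences at single genes was not tested. For Klf2, a Krüppel-like factor of naive pluripotency, the distance was 2.85 kb for Del(CBS8-10), 0.10 kb for Inv:Del(CBS7-10), 2.80 kb for Inv and 0.08 kb for Ins. For Esrrb, an orphan nuclear receptor, it was 16.5, 10.9, 16.8 and 1.01 kb in the same order. Of all 58205 Inv summits outside chromosome 11, whatever their strength, 3953 (6.79%) were also in the Inv:Del(CBS7-10) list and in neither the Del(CBS8-10) list nor the Ins list. Of the 70 with a −log10 q of at least 20, 5 (7.14%) lay within 1 kb of a protein-coding start, against 5.27% of all Inv summits of that strength.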
